A study of Mus musculus with 4 samples.

Results

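Kruppel-like factors (KLFs) are transcription factors that end in 3 C2H2 zinc fingers and bind GC-rich and CACCC elements in promoters. The fingers are much alike in the whole family, and the remaining protein differs between members, so that some recruit histone acetyltransferases and others recruit the CtBP or SIN3 corepressors. In epidermis the family is best known for KLF4, which is needed for the skin barrier, and for KLF5, which marks the proliferating basal keratinocytes (KCs). The 9 other members described here are Klf2, Klf3, Klf5, Klf6, Klf7, Klf9, Klf10, Klf11 and Klf13, picked by gene symbol from the 25814 genes of the count tables. They fall into the activator group (Klf2, Klf5, Klf6 and Klf7), the CtBP-binding repressor Klf3, and the SIN3-binding group (Klf9, Klf10, Klf11 and Klf13).

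RNA was sequenced from untreated primary KCs, the main cells of the epidermis, which were grown from tails of adult 129/sv mice in serum-free medium with 0.06 mM Ca++. There were 2 wild-type (WT) libraries and 2 libraries labelled Nfat5-/-, from mice deficient in NFAT5, a transcription factor activated by osmotic stress. Both genotypes came from sibling mice. The sample titles give a replicate number and do not say whether each library was a separate experiment. The tails had travelled overnight on ice before the KCs were prepared, and how long these cultures had grown is not given in the sources used here.

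Depth lay between 16219445 and 23494436 gene reads a library. Neither group held the same library deposited again, since the counts differed by more than sampling noise between both WT libraries (chi-square per degree of freedom 17.7) and between both libraries labelled Nfat5-/- (18.6). Nfat5 itself had 408 and 929 reads in WT against 715 and 770 reads in the other group, so the whole-gene count, which cannot show which exons were deleted, did not separate the labels. The keratinocyte markers summed to 13304 to 15230 RPKM (a level per exon length and per library size) over 10 genes in each library, of which the basal keratin genes Krt5 and Krt14 took the main part, whereas Krt15 stayed below 1 RPKM. In bulk RNA, fewer cells that express a gene and less RNA in each cell cannot be told apart.

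Reads from genes with near-identical stretches can be assigned to the wrong gene, and the fingers are the conserved stretch of the KLFs. The coding sequence of the second zinc finger was therefore compared between the members. This finger spans 69 bases within 1 exon in each of the 9 genes. It is shown for Klf10, whose level moved, for its nearest relative Klf11, for Klf9 and Klf13 of the same corepressor group, and for Klf3 and Klf6 of the others. Each runs 5′ to 3′ on the coding strand, and capitals mark the codons of the zinc-holding cysteines and histidines. The Klf10 finger lies at chr15:38296079-38296147 (minus strand), that of Klf11 at chr12:24660200-24660268 (plus), that of Klf9 at chr19:23164700-23164768 (plus), that of Klf13 at chr7:63891712-63891780 (minus), that of Klf3 at chr5:64828994-64829062 (plus) and that of Klf6 at chr13:5866656-5866724 (plus), all on GRCm38 with GENCODE M21 transcripts.
Klf10: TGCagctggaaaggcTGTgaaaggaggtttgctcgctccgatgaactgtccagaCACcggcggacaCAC
Klf11: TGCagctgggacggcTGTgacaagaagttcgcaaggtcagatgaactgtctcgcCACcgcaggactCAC
Klf9: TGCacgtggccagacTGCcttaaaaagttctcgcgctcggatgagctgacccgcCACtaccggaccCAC
Klf13: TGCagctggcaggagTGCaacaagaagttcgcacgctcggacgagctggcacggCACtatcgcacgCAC
Klf3: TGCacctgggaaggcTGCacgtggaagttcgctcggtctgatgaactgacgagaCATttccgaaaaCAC
Klf6: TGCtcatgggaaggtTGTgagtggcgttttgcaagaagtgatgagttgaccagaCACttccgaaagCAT

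Klf11 matched Klf10 at 53 of these bases (76.8%), Klf3 at 50 (72.5%), Klf13 at 46 (66.7%), Klf9 at 45 (65.2%) and Klf6 at 44 (63.8%). Among all pairs, Klf2 and Klf5 were the most alike with 81.2%, ahead of Klf6 and Klf7 with 79.7%. Over the whole of 25 coding transcripts of the 9 genes, the longest stretch shared by a pair was 12 to 26 bases, with Klf6 and Klf7 at the top. None of the 36 pairs shared a run of 59 bases, the length of the reads. Uniquely placed reads made up 99.9% (Klf13) to 100% of the exon reads of every member. An uncharacterised gene overlaps Klf3 (C230096K16Rik) and another overlaps Klf13 (E030018B13Rik), and both had 0 reads in every library. In the gene models of the tables on GRCm38, the activator genes are Klf2 (ENSMUSG00000055148) at chr8:72319033-72321656 (plus strand), Klf5 (ENSMUSG00000005148) at chr14:99298691-99315036 (plus strand), Klf6 (ENSMUSG00000000078) at chr13:5861482-5870394 (plus strand) and Klf7 (ENSMUSG00000025959) at chr1:64029447-64122282 (minus strand). The repressor genes are Klf3 (ENSMUSG00000029178) at chr5:64803388-64832901 (plus strand), Klf9 (ENSMUSG00000033863) at chr19:23141226-23166911 (plus strand), Klf11 (ENSMUSG00000020653) at chr12:24651274-24662789 (plus strand) and Klf13 (ENSMUSG00000052040) at chr7:63886351-63938915 (minus strand), beside Klf10 on chromosome 15.

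The levels of the 9 KLFs covered a range from below 1 to above 100 RPKM. In the WT libraries the order of the mean levels was Klf6 (126 RPKM), Klf13 (20.4), Klf3 (14.5), Klf5 (10.6), Klf9 (8.49), Klf10 (8.27), Klf7 (6.17), Klf11 (3.56) and Klf2 (0.118). The values of Klf5 overlapped with those of Klf9, and those of Klf9 with Klf10, while the other neighbours in this order did not overlap. Klf6 alone made up 60.7% and 66.4% of the summed KLF level in WT, compared with 62.8% and 59.2% in those labelled Nfat5-/-. In the latter the order was the same but for Klf10, which moved up to rank 3 with a mean of 17.7 RPKM, between Klf13 (18.3) and Klf3 (17.0). The Klf10 values overlapped there with those of Klf13 and with those of Klf3, while Klf13 and Klf3 did not overlap. Klf10 took 4.77% and 3.60% of the summed level in WT and 7.53% and 9.37% in the other group. The sum itself was 193 and 203 RPKM in WT against 213 and 207 RPKM in the libraries labelled Nfat5-/-.

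**Figure D1:**
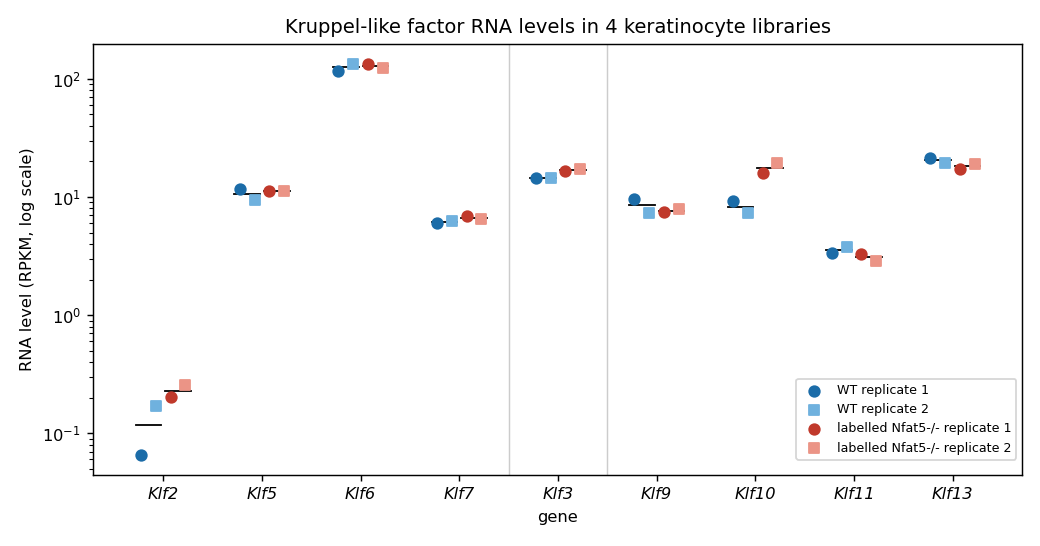
RNA level of the 9 KLFs on a log scale (RPKM) in each of the 4 libraries, with a short line at the mean of each group of 2, and grey lines between the activator group, Klf3 and the SIN3-binding group. The points of Klf10 in the libraries labelled Nfat5-/- (16.0 and 19.4 RPKM) lie above both WT points (9.23 and 7.32), and Klf6 lies above the other 8 genes in every library.

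Klf10 RNA was 2.17-fold higher in the libraries labelled Nfat5-/- than in WT, and no other KLF passed the test. Differential expression was tested with edgeR on total gene reads, and 12614 genes, 8 of the 9 KLFs among them, passed its filter on low counts. A gene is called here when its adjusted p, corrected for all tested genes by Benjamini and Hochberg, is below 0.05. That held for 1 KLF, Klf10, which was higher in the libraries labelled Nfat5-/-, and for 0 KLFs in the lower direction. Of all genes tested 1.27% were called, 0.943% as higher and 0.325% as lower. The median log2 fold change of the 8 KLFs was 0.07, beside -0.01 over all genes tested. At an unadjusted p below 0.05 stood 2 KLFs, Klf3 and Klf10, against a background of 14.6% of genes. The groups did not overlap in CPM (reads scaled to library size) for 4 KLFs, against 47.8% of all genes. For 3 of these (Klf3, Klf7 and Klf10) the libraries labelled Nfat5-/- were the higher ones, as for 23.3% of all genes, and for Klf11 they were the lower ones.

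Klf10, a repressor first found as a gene induced early by TGF-beta and known to restrain proliferation, lies at chr15:38291463-38300706 on the minus strand of GRCm38 (ENSMUSG00000037465, 14 exons over its transcripts). Its level was 9.23 and 7.32 RPKM in the WT libraries against 16.0 and 19.4 RPKM in those labelled Nfat5-/-, from 645, 687, 1623 and 1562 gene reads. Both libraries labelled Nfat5-/- stood above both WT libraries, with group means of 8.27 ± 1.35 and 17.7 ± 2.41 RPKM (SD, n = 2). The rise was 2.17-fold with a 95% interval from 1.68 to 2.81. On the log2 scale this is 1.12 (SE 0.16), and the adjusted p in edgeR was 0.0265.

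Reads across exon junctions, which come from spliced RNA, numbered 30 and 37 for Klf10 in WT, compared with 84 and 92 in those labelled Nfat5-/-. Scaled to library size these were 1.84 and 1.70 CPM against 3.56 and 5.04 CPM, again with no overlap. Intron reads were higher in both libraries labelled Nfat5-/- for 4 of 8 KLFs with at least 10 of them, Klf10 included, beside 10.1% of genes. Each of these values rests on a part of the same reads and adds no independent sample. The study had named Klf10 from these same libraries, so that its call here is not independent evidence either. The call was lost in 3 of 14 alternative analyses. Without replicate 1 of the libraries labelled Nfat5-/- the edgeR adjusted p was 0.0776, without replicate 2 of them it was 0.173, and with limma on log2(RPKM + 1) it was 0.061. The log2 fold change stayed between 0.96 and 1.30 in all 14.

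Klf11, the closest relative of Klf10 and like it a repressor induced by TGF-beta, did not pass the test. It had 3.33 and 3.80 RPKM in WT against 3.28 and 2.87 RPKM in the libraries labelled Nfat5-/-. The groups were apart by a narrow margin, with WT above. On the log2 scale the change was -0.21 (SE 0.15, edgeR adjusted p = 0.593), and its 95% interval ran from 0.675-fold to 1.11-fold.

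Klf9, a glucocorticoid-induced repressor of KC proliferation, had 9.68 and 7.29 RPKM in WT against 7.43 and 7.87 RPKM in the libraries labelled Nfat5-/-. WT replicate 1 stood above the other 3 libraries, which lay close together, and the groups overlapped. The log2 change of -0.13 (SE 0.16, edgeR adjusted p = 0.764) turned to 0.097 without WT replicate 1.

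Klf13, a repressor best studied in lymphocytes, was the most abundant gene of the SIN3-binding group in WT, with 21.2 and 19.5 RPKM there against 17.4 and 19.2 RPKM in the libraries labelled Nfat5-/-. The groups lay just apart in RPKM but overlapped in CPM scaled with TMM factors. Its log2 fold change was -0.14 (SE 0.11, edgeR adjusted p = 0.632).

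Ratios of Klf10 to its 3 SIN3-binding relatives within each library do not depend on library size. They were chosen with the rise of Klf10 known, restate it on another scale and are given as a description without a test. The ratio of Klf10 to Klf11 was 2.77 and 1.93 in WT, compared with 4.88 and 6.76 in those labelled Nfat5-/-. That of Klf10 to Klf9 was 0.953 and 1.003 in WT against 2.16 and 2.47 in the others. For Klf10 to Klf13 it was 0.434 and 0.374 in WT against 0.918 and 1.01 in the others. All 3 ratios were higher in both libraries labelled Nfat5-/- than in both WT libraries. Without Klf10, the summed level of the group was 34.2 and 30.6 RPKM in WT against 28.1 and 29.9 RPKM in the libraries labelled Nfat5-/-.

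The activator group showed no member past the threshold. Klf6, an early response gene of wounded and growth-stimulated cells, reached 117 and 135 RPKM in WT against 134 and 123 RPKM in the libraries labelled Nfat5-/-. The groups overlapped, and at 8394 to 13846 reads a library the log2 fold change was 0.04 (SE 0.11, edgeR adjusted p = 0.898), with a 95% interval from 0.863-fold to 1.23-fold. It turned to -0.044 without WT replicate 1 and to -0.0012 without replicate 1 of the libraries labelled Nfat5-/-.

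Klf5, the factor of proliferating basal cells, had 11.8 and 9.49 RPKM in WT against 11.2 and 11.3 RPKM in the libraries labelled Nfat5-/-. Both of the latter fell between the WT values. It changed by 0.10 on the log2 scale (SE 0.13, edgeR adjusted p = 0.779), and by -0.051 without WT replicate 2.

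Klf7, a broadly expressed factor known from neurons and fat cells, had 6.04 and 6.30 RPKM in WT against 6.92 and 6.47 RPKM in the libraries labelled Nfat5-/-. The groups did not overlap, yet the distance was small, with a log2 change of 0.14 (SE 0.10, edgeR adjusted p = 0.588). Klf2, a factor of quiescent endothelial cells and T cells, was near the lower limit of detection with 2 and 7 reads in WT against 10 and 9 reads in the libraries labelled Nfat5-/-. Those counts equal 0.0651, 0.171, 0.202 and 0.255 RPKM, and the gene did not pass the filter. Fitted without the filter, it had a log2 fold change of 0.96 with an SE of 0.76 (edgeR adjusted p = 0.703), so a difference was not detectable at this depth.

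Klf3, the CtBP-binding repressor, is widely expressed in epithelia and blood cells. Its level was 14.6 and 14.4 RPKM in WT against 16.7 and 17.3 RPKM in the libraries labelled Nfat5-/-. The libraries of each group lay close together and the groups were apart. The log2 fold change of 0.25 (SE 0.098) corresponds to 1.19-fold with a 95% interval from 1.01 to 1.397. In edgeR the p-value was 0.0369 before and 0.308 after adjustment. In all 14 alternatives the log2 fold change lay between 0.21 and 0.29 without passing the threshold.

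For the 7 tested KLFs other than Klf10, the 95% intervals lay between 0.675-fold (Klf11) and 1.397-fold (Klf3). Differences of 1.5-fold or more in either direction were thus outside each of these intervals, before any correction for the number of genes.

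**Figure D2:**
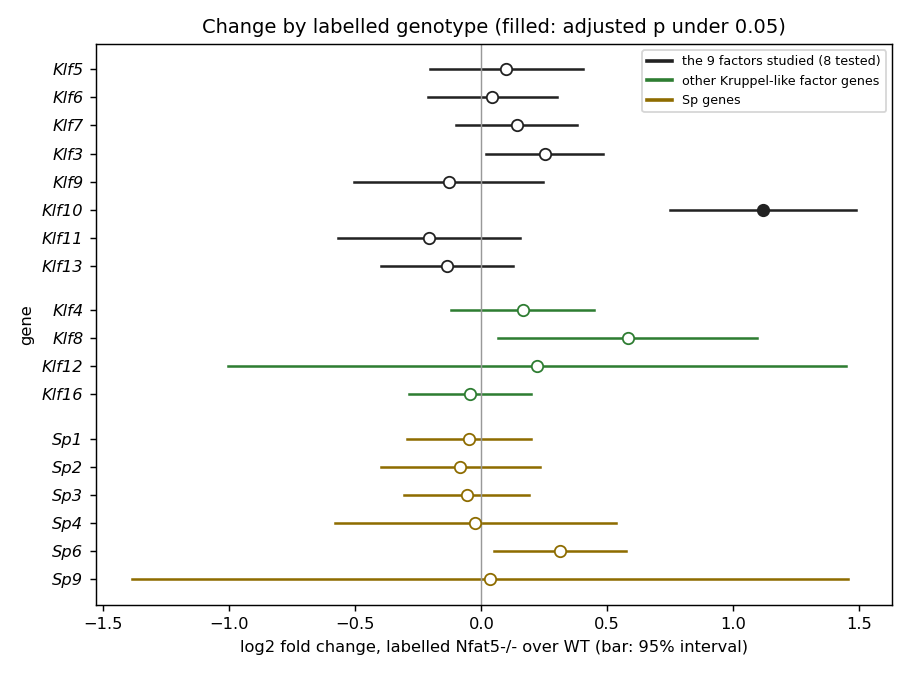
Log2 fold change of the libraries labelled Nfat5-/- over WT (x axis) for the 8 tested KLFs, 4 further Kruppel-like genes and 6 Sp genes, with 95% intervals from edgeR as bars and filled points for an adjusted p below 0.05. Klf10 at 1.12 is the sole filled point, and its interval lies to the right of those of the other 7 tested KLFs.

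Outside the 9, no further member of the family passed the test. Klf4, the barrier factor, had 35.8 and 30.2 RPKM in WT against 35.3 and 37.6 RPKM in the libraries labelled Nfat5-/- (log2 fold change 0.16, edgeR adjusted p = 0.591). Of the 8 other Kruppel-like genes listed, Klf4 included, 4 could be tested and 0 passed, at a median log2 fold change of 0.19. They ranged from -0.04 (Klf16) to 0.58 (Klf8, 0.809 and 1.13 RPKM in WT against 1.44 and 1.49 RPKM in the others, edgeR adjusted p = 0.293). Of the 9 Sp genes, which share the type of zinc finger, 6 were tested and 0 passed, from -0.08 (Sp2) to 0.31 (Sp6, edgeR adjusted p = 0.270).

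Genes that act with, upstream of or beside the KLFs were taken from 6 lists. Together with the further Kruppel-like and Sp genes these lists held 84 different genes, of which 75 were tested. Fos was the 1 gene called (1.33% of these, beside 1.27% of all genes tested), and the median log2 fold change of the 75 was 0.00. At an unadjusted p below 0.05 stood 17 of them, beside 14.6% of all genes tested.

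Of the cofactors and ubiquitin ligases of KLFs, all 12 were tested and 0 passed. Their median log2 fold change was 0.05, with Kat2b, a histone acetyltransferase, at the upper end (0.48, edgeR adjusted p = 0.144) and the corepressor gene Ctbp1 at the lower end (-0.12, edgeR adjusted p = 0.653).

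TGF-beta signalling induces Klf10 and Klf11 in many cells. Among its 11 ligand, receptor, SMAD and early target genes, 0 passed, and the median was -0.01. Smad7, an inhibitory SMAD and itself a target of the pathway, had 11.6 and 15.2 RPKM in WT against 9.31 and 8.86 RPKM in those labelled Nfat5-/-. These groups did not overlap and WT was the higher one, with a log2 change of -0.54 (SE 0.14, edgeR adjusted p = 0.144). Tgfb2, a ligand, was at the other end with 0.231 and 0.208 RPKM in WT against 0.463 and 0.393 RPKM in the others, at a log2 fold change of 0.93 (edgeR adjusted p = 0.235).

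The ERK5 and MEF2 genes act upstream of Klf2, and Klf2 is known to depend on them. Of 5 such genes 4 were tested and 0 passed, with values from -0.25 (Map2k5) to 0.25 (Mef2d).

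The 8 genes of the glucocorticoid receptor and its response, which include regulators and companions of Klf9, gave 0 calls and a median of -0.10. Their range was from -0.38 (Tsc22d3, edgeR adjusted p = 0.677) to 1.24 (Zbtb16, edgeR adjusted p = 0.442). Like Klf9, several of these genes had their highest value in WT replicate 1, which was noticed after the values had been seen. Tsc22d3, which encodes the glucocorticoid-induced leucine zipper, had 18.7 RPKM there and 7.85 to 10.4 RPKM in the other libraries. Fkbp5, which encodes a chaperone of the receptor, had 15.0 RPKM there and 9.53 to 12.3 RPKM in the others. Per1, a clock gene with glucocorticoid response, had 16.3 RPKM there and 11.8 to 13.5 RPKM in the others. WT replicate 1 was the highest library for 4 of the 8 genes, beside 29.6% of all genes tested. The remaining genes of the list, Zbtb16 among them, had their highest CPM in other libraries. WT replicate 1 was also the highest library for 5 of the 10 keratinocyte markers, so this trait was not particular to the glucocorticoid list. How this library came to stand apart was not tested.

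**Figure D3:**
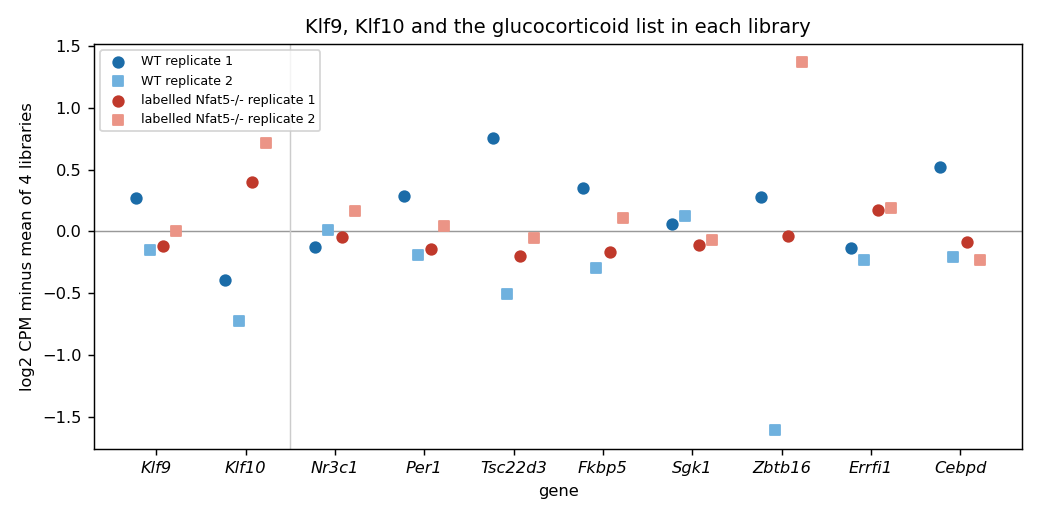
Log2 CPM of Klf9, Klf10 and the 8 glucocorticoid list genes in each of the 4 libraries, centred on the mean of the 4 for each gene (y axis, log2 units). WT replicate 1 is the highest point for Klf9, Per1, Tsc22d3, Fkbp5 and Cebpd, while for Klf10 both libraries labelled Nfat5-/- lie above both WT libraries.

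For the circadian clock, to which Klf9 and Klf10 are linked as output genes, 16 of 17 genes were tested and 0 passed. Their median of -0.21 was the lowest among the related lists. Nfil3, a repressor of clock output, was at its lower end with 28.1 and 20.8 RPKM in WT against 14.9 and 13.3 RPKM in the libraries labelled Nfat5-/- (log2 fold change -0.77, edgeR adjusted p = 0.0772). At its upper end stood the clock gene Per2 (0.34, edgeR adjusted p = 0.776). Bhlhe41 had the smallest adjusted p of the list (log2 fold change -0.75, edgeR adjusted p = 0.0755). At an unadjusted p below 0.05 stood 4 of the 16, all with WT higher, beside 14.6% of all genes tested. The groups did not overlap in CPM for 7, beside 47.8%, and 5 of the 16 had a positive log2 fold change.

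Immediate early genes respond within minutes to growth factors and stress, as Klf6 and Klf10 do in other cells. Of 15 genes 1 passed as higher and 0 as lower, at a median of 0.11. The groups did not overlap in CPM for 12 of the 15, beside 47.8% of all genes tested, and 6 stood at an unadjusted p below 0.05, beside 14.6%. Both counts pool the directions. WT was the higher group for Ier3, Atf3 and Nr4a1 among the former and for Atf3 among the latter. Egr3 and Egr1, zinc finger factors of early growth response, had larger changes than Fos without passing the threshold (log2 fold changes of 1.26 and 1.09, edgeR adjusted p = 0.0776 and 0.0532). At the lower end was the orphan receptor gene Nr4a1 (-0.41, edgeR adjusted p = 0.501). Fos, a subunit of the AP-1 factor, had 10.7 and 10.2 RPKM in WT against 17.1 and 17.8 RPKM in the libraries labelled Nfat5-/-. Both of the latter lay above WT, and the log2 fold change was 0.76 (SE 0.11, edgeR adjusted p = 0.0319). Its call was lost in 4 of 14 alternatives. The adjusted p was 0.113 without replicate 1 and 0.212 without replicate 2 of the libraries labelled Nfat5-/- (edgeR), 0.0564 with the replicate number as a block (edgeR) and 0.0547 with limma on log2(RPKM + 1).

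**Figure D4:**
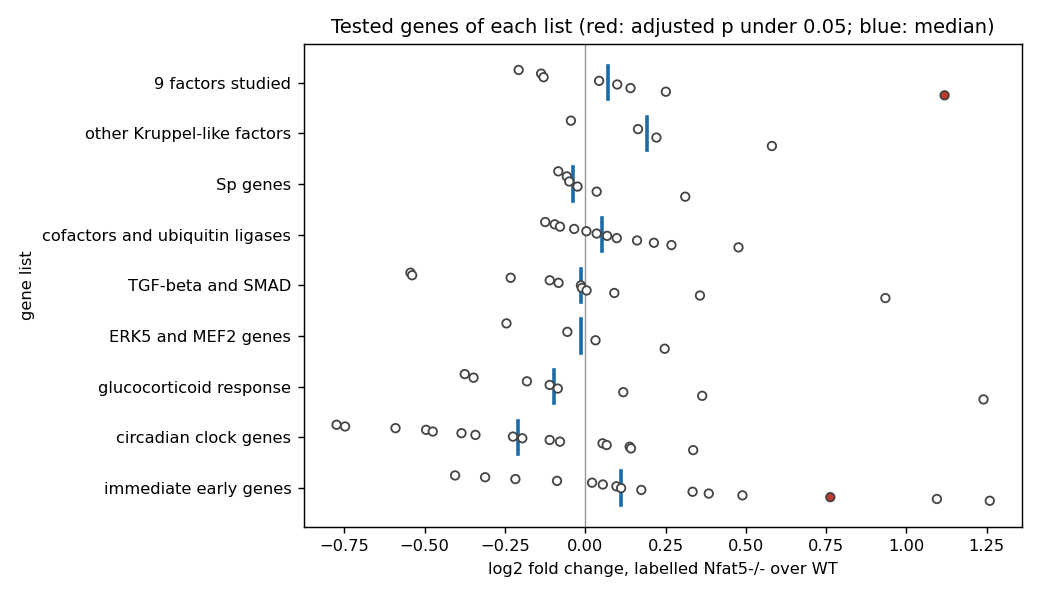
Log2 fold change of the libraries labelled Nfat5-/- over WT (x axis) for each tested gene of the 9 KLFs and of 8 related lists, with a blue line at the median of each list and red points for an edgeR adjusted p below 0.05. Klf10 (1.12) and Fos (0.76) are the red points, and the medians lie between -0.21 (circadian clock genes) and 0.19 (other Kruppel-like factors).

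The genes whose pattern over the 4 libraries was most like that of Klf10 were searched among 9270 genes with at least 2 RPKM in the higher group, by the root mean square difference of centred log2 CPM. They were Tgm2, a transglutaminase (0.051), Lce1h, a late cornified envelope gene (0.056), and Spns2, a sphingosine-1-phosphate exporter (0.071). Tgm2 had 2.64 and 1.90 RPKM in WT against 4.36 and 5.37 RPKM in the libraries labelled Nfat5-/-, although 29.5% of its exon reads were uniquely placed. Lce1h had 30.1 and 26.3 RPKM in WT against 55.2 and 69.7 RPKM in the others. Spns2 had 5.18 and 4.04 RPKM in WT against 7.99 and 11.0 RPKM in the others. As for Klf10, WT replicate 2 was the lowest and replicate 2 of the libraries labelled Nfat5-/- the highest library for all 3. Their likeness was searched for and is a description of these 4 libraries.

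Other cell types were checked because tail skin holds more than KCs. Of the smooth muscle markers, Acta2, Tagln and Cnn1 were called higher in the libraries labelled Nfat5-/-, as 0.943% of all genes tested were. The summed level of the 5 markers was 184 and 151 RPKM in WT against 518 and 819 RPKM in the libraries labelled Nfat5-/-. Acta2, the smooth muscle actin gene, was 4.00-fold, the actin-binding Tagln 4.32-fold and the calponin gene Cnn1 4.49-fold higher than in WT. The smooth muscle myosin gene Myh11 had 1 and 1 reads in WT, compared with 22 and 40 in those labelled Nfat5-/-. It passed the filter only through the group where it is high, so its test is not counted. Its highest level was 0.294 RPKM, and Des had 1 read in WT replicate 1 and 0 in the other libraries. Of the 5 melanocyte markers tested 1 was called, Tyrp1, which was lower at a log2 fold change of -2.04 (edgeR adjusted p = 0.0203). The markers summed to 7.54 and 7.20 RPKM in WT against 2.30 and 3.20 RPKM in the others, without overlap. Groups did not overlap in 47.8% of all genes tested. Dct had a log2 fold change of -1.65 (edgeR adjusted p = 0.0923) and Pmel of -1.30 (edgeR adjusted p = 0.0772). Tyr had 9 and 11 reads in WT, compared with 3 and 7 in those labelled Nfat5-/-, and passed the filter only through WT. Mitf had a log2 fold change of 0.27 (edgeR adjusted p = 0.761), and Mlana did not pass the filter. Sums of the markers of fibroblasts (0.435 to 1.13 RPKM), endothelial cells (5.08 to 6.10 RPKM) and immune cells (2.23 to 4.47 RPKM) were low in all libraries, and 0 of these genes passed. The part of other cells in the Klf10 result was not tested.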

How the data were processed

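KC libraries were sequenced as single reads of 59 bases after poly(A) selection. The authors trimmed the reads and aligned them to GRCm38 with the CLC Genomics Workbench at default RNA-Seq settings. They deposited, for each gene and library, read counts that were not normalized (total gene, exon, intron and junction reads) and RPKM values written with decimal commas. Counting is not stated to use strand, and multiply placed reads were assigned by the software. Groups and replicate numbers were taken from the sample titles.

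Total gene reads of all 4 libraries were fitted with edgeR 4.0.16 in R 4.3.3 (filterByExpr, TMM factors of 0.980 to 1.01, quasi-likelihood test with genotype as the sole term, two-sided). P-values were adjusted over the 12614 genes tested, with a threshold of 0.05 and intervals at 95%. With 2 libraries a group, p-values cover no spread beyond that between these libraries. In edgeR the spread of each gene is also drawn towards that of all genes tested, so it does not rest on its own libraries alone. A count of 3 reads equals 0.128 to 0.185 CPM, and without molecular identifiers this covers counting error only.

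The text names all 9 KLFs, from each related list the genes past the threshold or otherwise its largest and smallest change, and the 3 genes most like a called KLF. Per1, Fkbp5, Cebpd, Bhlhe41, Egr1, Egr3, Nr4a1, Ier3, Atf3 and the marker genes were named after their values had been seen. Members and lists were chosen with earlier results of these data known, so their counts are no independent support. Zinc finger sequences were cut from GENCODE M21 transcripts. Of the 25814 gene identifiers, 25779 were found in that annotation. One immune marker was not analysed here. Libraries of the same replicate number did not share their deviations from the group means (correlation over genes -0.07). This value cannot show whether they were prepared together. Alternatives were other scaling factors (RLE, library totals), no filter, a minimum of 10 reads in every library, DESeq2 1.42.0, a replicate block, exon reads in all or uniquely placed, limma-trend (limma 3.58.1) on RPKM with a pseudocount of 1 or 0.1 before the log2, and each library left out in turn.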

Additional observations from a re-analysis of the deposited data

Results flagged for a closer look

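Intron reads, which the comparisons of gene levels do not separate out, were higher in both libraries labelled Nfat5-/- than in both WT libraries for 4 of the 8 KLFs with at least 10 intron reads in all. The same held for 10.1% of the 10405 genes with that many intron reads. The counts are small, and no test was run on them. For Klf6 there were 8 and 15 intron reads in WT, compared with 35 and 20 in those labelled Nfat5-/-, a ratio of mean CPM of 2.18. For Klf10 the reads were 4 and 10 in WT against 11 and 12 in the others, a ratio of 1.59. Klf3 had 11 and 17 intron reads in WT against 23 and 20 in the others, a ratio of 1.42. Klf7 had 15 and 27 in WT against 34 and 23 in the others, a ratio of 1.25. Of these genes, Klf6 had a total gene level that overlapped between the groups.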

How the results depend on the processing

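Of 14 alternatives each, all kept the direction of Klf3, Klf7, Klf10, Klf11 and Klf13. With a library left out, the log2 fold change of Klf5 ranged from -0.051 to 0.27, that of Klf6 from -0.044 to 0.14 and that of Klf9 from -0.33 to 0.097, so that these 3 turned direction. The number of KLFs called was 0 with limma on log2(RPKM + 1) and 0 to 1 with a library left out. It was 0 without either library labelled Nfat5-/-. The number of all genes called was 1137 (723 higher, 414 lower) without the filter, 416 (298 and 118) with DESeq2 and 77 with limma on log2(RPKM + 1). Leave-one-out counts ran from 16 (without replicate 2 of the libraries labelled Nfat5-/-) over 31 (without replicate 1 of them) and 268 (without WT replicate 1) to 478 (without WT replicate 2). Of the related genes 11 were called without the filter, 5 with DESeq2, 0 with limma on log2(RPKM + 1) and 2 each with RLE factors, library totals, a minimum of 10 reads, exon reads and unique exon reads, and 0 to 4 with a library left out. The sample titles do not say whether libraries of the same replicate number were prepared together. A block on replicate number left 132 genes called, 109 of them shared with the 160 of the unblocked fit. Klf10 had a log2 fold change of 1.12 and an edgeR adjusted p of 0.0479 there. With this block 1 related gene was called as higher, and it was not Fos. Where a call was lost, the cause was not tested. In the leave-one-out fits a lone library is assumed to vary like the other group. Of the 9 KLFs, Klf2 was the 1 gene that did not pass the filter on low counts.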

Other observations

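WT replicate 1 was the highest of the 4 libraries for 3 of the 8 tested KLFs (Klf5, Klf9 and Klf13) and for 9 of the 16 tested circadian clock genes, beside 29.6% of all genes tested. Dbp, a clock output gene, had 3.34 RPKM there and 1.28 to 1.63 RPKM in the other libraries. These genes were chosen after their values had been seen, and no test was run on a single library.

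Reads across exon junctions of the most abundant factor, Klf6, were 358 and 584 in WT, compared with 719 and 462 in those labelled Nfat5-/-, which equals 21.97 and 26.8 CPM against 30.4 and 25.3 CPM with overlapping groups. For Klf3 they were 121 and 148 in WT against 217 and 175 in the others, or 7.43 and 6.79 CPM against 9.19 and 9.58 CPM, and these groups did not overlap.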
